A study of Mus musculus with 36 samples.

Results

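The comparison described here set normoxic mouse liver at ZT16, in the active dark phase, against normoxic liver at ZT4, in the rest phase (ZT, Zeitgeber time, with lights on at ZT0). It held 6 of the 36 liver RNA-seq libraries of the series, those whose labels give normoxia and these 2 times: 3 mice at ZT4 and 3 other mice at ZT16. All were wild-type male C57BL/6JRj mice, 16 weeks old, on chow at will and a cycle of 12 h of light and 12 h of dark, and all had spent 4 weeks under matched air-air cycles, the control for chronic intermittent hypoxia (IH). The 6 IH libraries of the same times, used in the filter on low values and in a comparison at the end, came from mice of the same strain, sex and age given hypoxia-reoxygenation cycles daily from ZT0 to ZT8, so that their ZT4 livers were taken during exposure. Each library was 1 animal killed once, and which mice shared a cage is not given in the sources used here.

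At ZT16 the negative-limb clock genes Per1, Per2, Per3, Cry1 and Cry2, most chaperones of the heat shock response, and several genes of glucose use and fatty acid synthesis were higher than at ZT4. Nr1d1, the cold-inducible Cirbp, most of the interferon-stimulated genes listed and several genes of bile acid synthesis and secretion were lower. Cyp7a1, the rate-limiting enzyme of bile acid synthesis, was higher. Of 13215 genes tested with limma on log2(FPKM + 1), 516 were called higher and 782 lower at ZT16 at a Benjamini-Hochberg adjusted p under 0.05 (FPKM, fragments mapped to a gene, scaled to its length and to the fragments mapped in the library). Among called genes the largest rise was that of Tsku at 3.71 ± 0.50 (log2, SE) and the largest fall that of Nr1d1 at -3.82 ± 0.24.

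Liver cells hold a circadian clock in which CLOCK and BMAL1 (gene Arntl) switch on the Per and Cry genes, whose proteins then block their own activators, and in which REV-ERB proteins (Nr1d1 and Nr1d2) repress Arntl. The clock also drives D-box factors such as DBP, TEF and HLF, which control many genes of drug, bile acid and lipid metabolism. Mice eat mostly in the dark, so that feeding, insulin, body temperature and glucocorticoid also differ between rest and active phase and reach the liver beside its own clock.

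The summed FPKM of the 6 libraries ranged from 573026 to 626371. Read depth was unknown, but the steps between low values gave relative depths of 0.847 to 1.112 against the first ZT4 library. Alb, which encodes albumin, the main hepatocyte transcript, stood between 24881 and 36930 FPKM in all 6 libraries. ZT16 replicate 3 stood apart. On the first principal component, with 47.5% of the variance, the ZT4 libraries lay at 14.5 to 19.2, ZT16 replicates 1 and 2 at -25.3 and -25.1, and ZT16 replicate 3 at -1.31. Over the 1898 genes called without ZT16 replicate 3, that library had gone a median of 65.1% of the way from the ZT4 mean to the mean of the other ZT16 mice on the log2 scale (quartiles 33.0% and 92.0%). The other libraries, each placed in the same way on the 253 to 649 genes called without it, sat at medians of 84.4% to 104.1%. It read far above the other ZT16 mice for several acute phase transcripts, such as Saa1 at 12912 FPKM against 43.8 and 46.1 FPKM. For the gene lists below, the counts without it are given beside those of all 6 libraries, to be read against 3.90% higher and 5.92% lower among all genes tested with all 6 and 7.23% and 7.13% without it.

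The 516 genes called higher were 3.90% of those tested and the 782 called lower 5.92%. None of these 1298 genes had groups that overlapped; without regard to the test, all ZT16 libraries lay above all ZT4 libraries for 13.9% of genes and below them for 19.7%. Most changes were modest: the median among called genes was 0.55 for those higher and -0.50 for those lower, and only 85 and 67 passed 1 on the log2 scale. Without ZT16 replicate 3, 956 genes were called higher (7.23%) and 942 lower (7.13%), 1147 of them shared with the fit of all 6 libraries, while 151 calls were lost and 751 gained. Leaving out any other library cut the count, to 253 genes without ZT16 replicate 2, 287 without ZT16 replicate 1, and 380, 566 and 649 without ZT4 replicates 1, 2 and 3. The split between directions moved with the scaling: 39.8% of calls were higher ones as deposited, against 49.9% (860 higher, 864 lower) after median-of-ratios scaling.

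**Figure D1:**
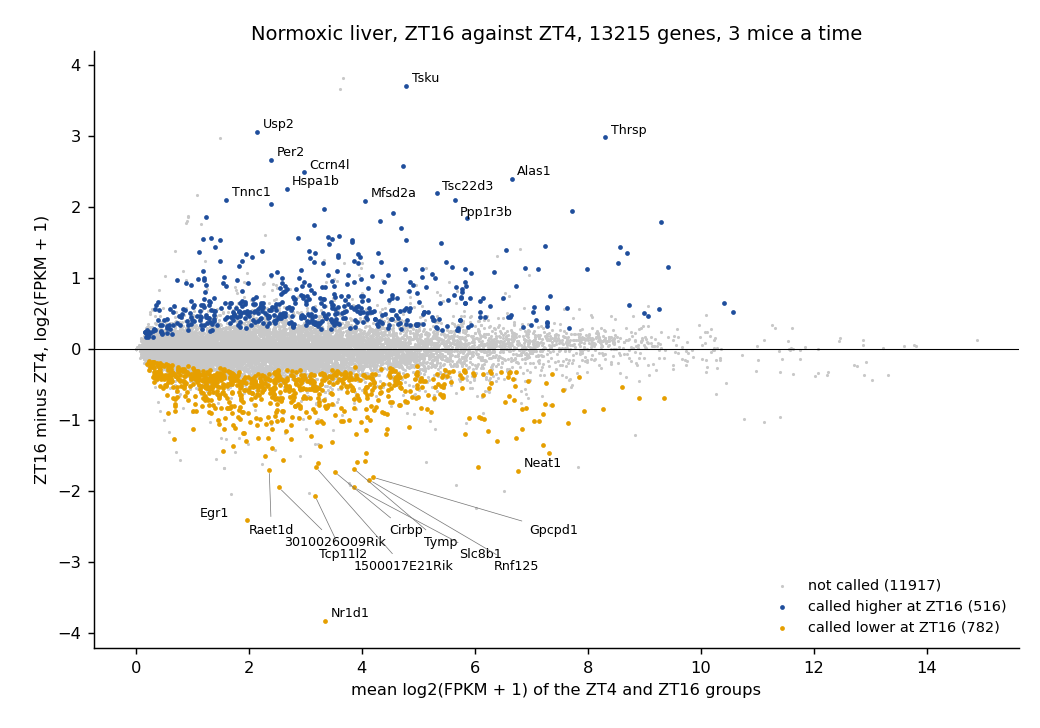
Each point is 1 of 13215 genes; the x axis is the mean log2(FPKM + 1) of both groups and the y axis the ZT16 minus ZT4 difference on that scale. Blue points are the 516 genes called higher and orange points the 782 called lower, with Tsku the highest of those called (3.71) and Nr1d1 the lowest (-3.82).

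Among core clock genes, 7 of 16 members tested were higher at ZT16 and 4 were lower, with the same counts without ZT16 replicate 3, beside the 3.90% and 5.92% of all genes. Nr1d1 (chr11:98767932-98775333, GRCm38), which encodes the repressor REV-ERB alpha, read 55.2, 34.2 and 28.0 FPKM in the ZT4 mice and 1.69, 2.14 and 1.38 FPKM at ZT16. All ZT16 mice were thus far below all ZT4 mice, with means of 39.1 ± 14.3 and 1.74 ± 0.384 FPKM (SD, n = 3), a 22.5-fold ratio of means, and an adjusted p of 0.0023. Its relative Nr1d2 fell less, from 8.53 to 9.69 FPKM at ZT4 to 5.10 to 5.24 FPKM at ZT16 (log2 difference -0.69 ± 0.07, SE). Npas2, a partner of BMAL1 that can stand in for CLOCK, read 1.01, 1.89 and 1.62 FPKM at ZT4 and no more than 0.0563 FPKM in any ZT16 mouse.

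The period and cryptochrome genes moved the other way. Per2 (chr1:91415982-91459324) read 0.907, 0.977 and 1.42 FPKM at ZT4 and 14.2, 15.4 and 8.37 FPKM at ZT16, the last in replicate 3. The log2 difference was 2.67 ± 0.22 (SE, adjusted p = 0.0033). Per1 read 0.846, 1.60 and 2.60 FPKM at ZT4 against 8.83, 9.57 and 10.7 FPKM at ZT16, and here replicate 3 was the highest of all. Per3 rose by 1.36 ± 0.12, Cry1 by 1.56 ± 0.17 and Cry2 by 0.46 ± 0.09 on the log2 scale. Ciart, a repressor of CLOCK-BMAL1, rose by 1.86 ± 0.13 from no more than 0.355 FPKM at ZT4. Arntl was not called: it read 8.64, 7.19 and 7.21 FPKM at ZT4 and 4.71, 6.53 and 5.94 FPKM at ZT16 (log2 difference -0.37 ± 0.13, adjusted p = 0.11). Clock read 2.64 to 3.00 FPKM at ZT4 and 2.40 to 3.32 FPKM at ZT16, with groups that overlapped.

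The promoters of called clock genes are shown because these genes moved together and the elements through which clock factors act are short enough to read. RefSeq windows (GRCm38.p6) of the 250 bases before the start site were at hand for 8 of the 11 called core clock genes. The E-box CACGTG, bound by CLOCK-BMAL1, was found in the windows of Per1, Cry1 and Ciart, against 6.02% of all 32851 windows. The D-box TTATGTAA was found in that of Per3, against 0.819% of all windows, while its variant TTACGTAA was found in none of the 8 genes and 0.113% of all windows. The half-site AGGTCA of the REV-ERB element was found in those of Per1 and Nr1d2, against 14.0% of all windows. Both strands were searched, a match is a description of the letters and no measure of binding, and capitals mark the matches, with the AGGTCA of Per1 lying on the other strand.
Ciart, minus strand, chr3:95882229-95882478: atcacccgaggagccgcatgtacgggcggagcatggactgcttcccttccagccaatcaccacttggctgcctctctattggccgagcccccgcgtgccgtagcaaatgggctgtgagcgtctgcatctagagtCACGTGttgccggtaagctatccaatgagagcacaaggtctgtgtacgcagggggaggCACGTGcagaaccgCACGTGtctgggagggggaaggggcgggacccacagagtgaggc
Cry1, minus strand, chr10:85185055-85185304: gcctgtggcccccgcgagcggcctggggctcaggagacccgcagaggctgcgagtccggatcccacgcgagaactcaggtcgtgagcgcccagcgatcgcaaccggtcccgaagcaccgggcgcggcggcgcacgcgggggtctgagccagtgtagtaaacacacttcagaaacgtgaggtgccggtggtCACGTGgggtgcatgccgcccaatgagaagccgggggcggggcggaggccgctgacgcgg
Per1, plus strand, chr11:69098699-69098948: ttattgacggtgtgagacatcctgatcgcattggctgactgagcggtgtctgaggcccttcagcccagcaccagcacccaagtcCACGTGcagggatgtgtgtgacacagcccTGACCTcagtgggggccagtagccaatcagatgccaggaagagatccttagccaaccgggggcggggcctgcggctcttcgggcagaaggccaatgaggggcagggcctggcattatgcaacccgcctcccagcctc
Per3, minus strand, chr4:151044666-151044915: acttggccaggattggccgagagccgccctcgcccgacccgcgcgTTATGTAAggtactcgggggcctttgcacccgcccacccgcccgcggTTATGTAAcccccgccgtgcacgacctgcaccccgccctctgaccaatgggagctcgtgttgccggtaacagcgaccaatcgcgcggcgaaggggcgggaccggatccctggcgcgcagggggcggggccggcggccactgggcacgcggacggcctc

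Ciart held 3 E-boxes, which begin 116, 58 and 44 bases before the start site, and Per3 held 2 D-boxes, which begin 205 and 158 bases before it. Per1, Cry1, Ciart and Per3 were all higher at ZT16, but motif and direction did not go together throughout. Cry2, also higher, held none of the motifs searched, and neither did Nr1d1 and Npas2, which were lower. Nr1d2, with its AGGTCA, was lower as well, and a further window of Per1 held no match.

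**Figure D2:**
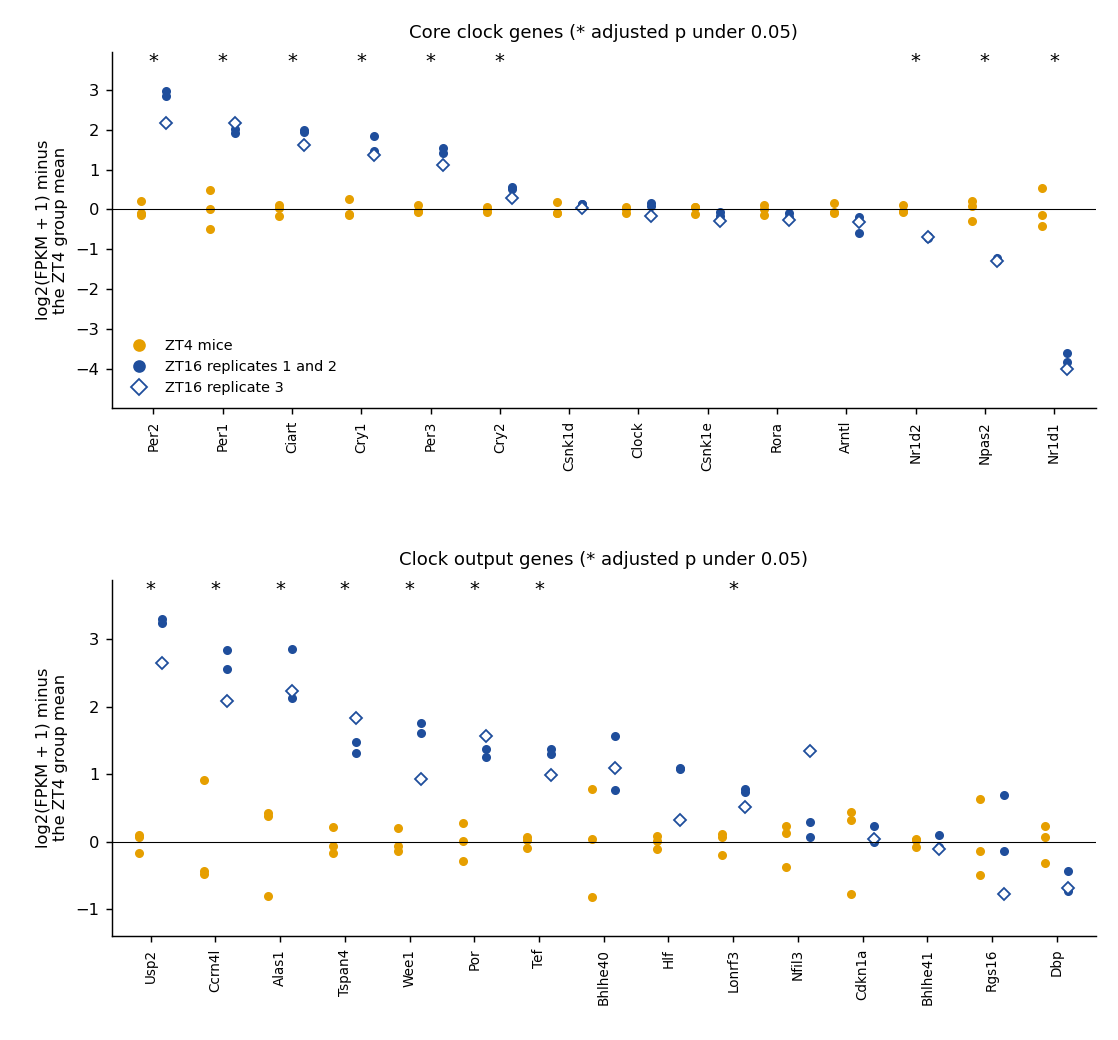
Every library of 14 core clock genes (top) and 15 clock output genes (bottom), as log2(FPKM + 1) minus the mean of the 3 ZT4 mice. The ZT16 points of Per2 and Usp2 stand more than 2 above the ZT4 mean and those of Nr1d1 more than 3 below it, and the diamond, ZT16 replicate 3, lies nearest to ZT4 for Per2, Usp2 and Wee1.

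Of the clock output genes, 8 of 15 tested were higher and none lower, against 3.90% higher among all genes. Usp2 (chr9:44067021-44095627), a deubiquitinating enzyme under clock control, read 0.610, 0.367 and 0.641 FPKM at ZT4 and 13.4, 14.1 and 8.59 FPKM at ZT16 (log2 difference 3.06 ± 0.19, SE, adjusted p = 0.0023). Ccrn4l, which is annotated as Noct and encodes nocturnin, read 1.45, 1.38 and 5.24 FPKM at ZT4 and 22.6, 18.5 and 13.1 FPKM at ZT16, so that the third mouse of each group lay nearest to the other group. Alas1, the first enzyme of heme synthesis, read 24.2, 56.3 and 57.9 FPKM against 316, 191 and 205 FPKM. Por, the electron donor of the microsomal P450 enzymes, rose by 1.39 ± 0.15 and Tspan4, a tetraspanin, by 1.54 ± 0.16 on the log2 scale. Wee1, a kinase that holds back mitosis, rose by 1.43 ± 0.22, Lonrf3 by 0.68 ± 0.11, and the D-box factor Tef by 1.22 ± 0.11. The D-box factor Hlf passed only without ZT16 replicate 3: it read 4.03 to 4.74 FPKM at ZT4, 10.4 FPKM in each of ZT16 replicates 1 and 2, and 5.73 FPKM in replicate 3. Dbp, another D-box factor and the namesake of the family, was not called, at 3.90, 2.77 and 4.52 FPKM and 2.47, 1.82 and 1.91 FPKM (adjusted p = 0.059).

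ZT4 and ZT16 are 2 points of a curve, and the other normoxic times place them on it. Dbp averaged 70.8 FPKM at ZT8 and 31.9 FPKM at ZT12, and Arntl 0.306 FPKM at ZT8 and 10.7 FPKM at ZT0, so that this pair of times straddled their extremes rather than meeting them. Of the 516 genes higher at ZT16, 242 (46.9%) had their highest normoxic mean at ZT16 and 168 (32.6%) at ZT12, against 9.23% and 21.8% of all genes tested. Of the 782 lower ones, 355 (45.4%) had it at ZT4 and 236 (30.2%) at ZT8, against 11.2% and 21.4%. The shares at ZT16 and ZT4 are a description only, since the genes were called on those same libraries. Nr1d1 had its highest mean at ZT8, 58.8 FPKM, and Usp2 at ZT12, 20.9 FPKM. Normoxic ZT12 replicate 2 had a summed FPKM of 808274, against 567374 to 626371 in the other normoxic libraries. The means were not rescaled, and the part of that library in the ZT12 means and shares was not tested.

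**Figure D3:**
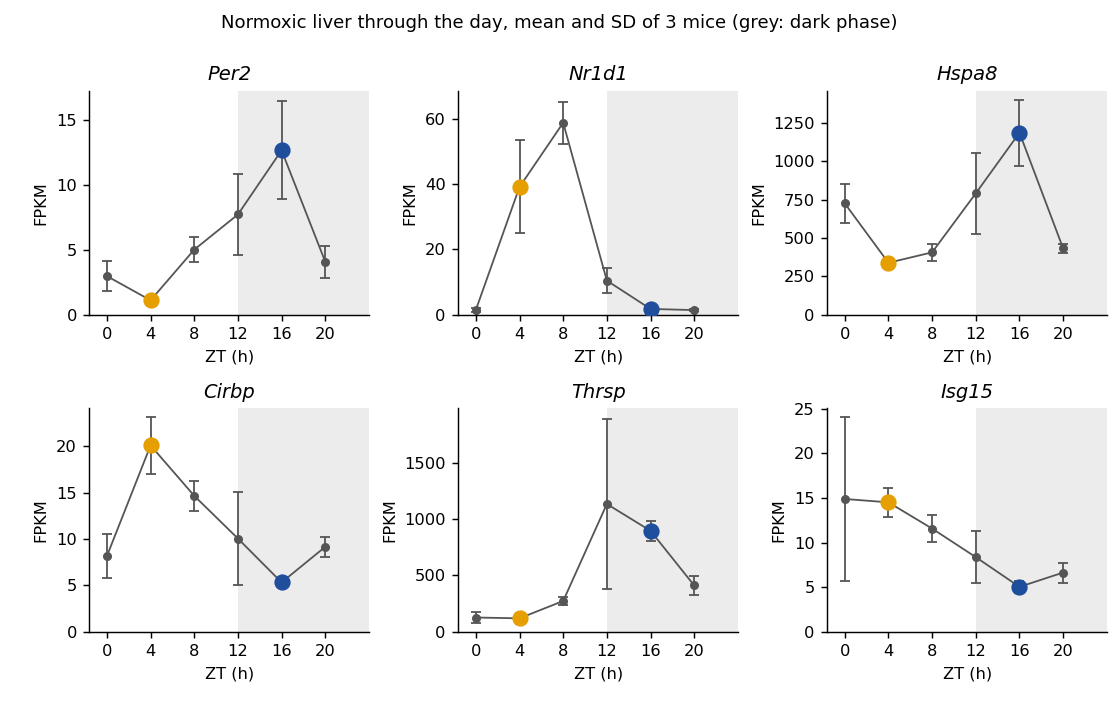
Mean FPKM and SD of 3 normoxic mice at each of 6 times for 6 genes, with ZT4 in orange, ZT16 in blue and the dark phase shaded. Per2 and Hspa8 were highest at ZT16 and Cirbp at ZT4, whereas Nr1d1 reached its highest mean at ZT8 and Thrsp at ZT12. The ZT12 means include replicate 2, with its high summed FPKM of 808274, and were not rescaled.

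The heat shock chaperones were the list with the largest share of calls: 17 of 23 genes tested rose and none fell, and 19 rose without ZT16 replicate 3. The median log2 difference of the list was 0.75, against -0.017 over all genes tested. These proteins fold new or damaged proteins and are switched on by the factor HSF1. Hspa8 (chr9:40800984-40810087), the constitutive HSP70, read 351, 304 and 359 FPKM at ZT4 and 1242, 1368 and 948 FPKM at ZT16 (1.79 ± 0.15 on the log2 scale, SE, adjusted p = 0.0033). Hsph1, an exchange factor of HSP70, read 10.2, 10.6 and 8.54 FPKM against 39.6, 38.4 and 31.8 FPKM, with an adjusted p of 0.0023. The inducible genes Hspa1b and Hspa1a rose by 2.25 ± 0.22 and 1.53 ± 0.16, although these near-identical copies share reads and their split is uncertain. Hsp90aa1 read 79.6, 77.0 and 80.8 FPKM at ZT4 and 188, 188 and 153 FPKM at ZT16, and Hsp90ab1 343, 343 and 344 FPKM against 549, 562 and 482 FPKM.

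Among the cochaperones, Dnajb1, an HSP40, rose by 1.38 ± 0.13, Bag3 by 1.35 ± 0.12, Chordc1 by 1.24 ± 0.10 and Dnaja1 by 1.23 ± 0.12 on the log2 scale. The small heat shock protein Hspb1 read 30.9 to 31.9 FPKM at ZT4 and 82.4, 76.3 and 57.0 FPKM at ZT16. The mitochondrial Hspe1, at 135 to 138 FPKM and 171 to 180 FPKM, moved least of those called. Hsf1 itself, the collagen chaperone Serpinh1, Hspa4, Hspd1 and the chaperonin subunits Cct2 and Cct5 were not called with all 6 libraries. Cirbp (chr10:80165985-80172786), an RNA-binding protein induced by mild cold, fell from 18.7, 23.6 and 18.0 FPKM to 5.04, 5.07 and 5.87 FPKM, a log2 difference of -1.73 ± 0.12 that replicate 3 shared in full. Rbm3, the other cold-inducible RNA-binding protein, read 17.3 to 25.3 FPKM and 21.9 to 29.3 FPKM and was not called (adjusted p = 0.28).

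Promoter windows of chaperones are shown for their inverted heat shock units, GAANNTTC or TTCNNGAA, the letters HSF1 binds. Either unit was found before the start site of 8 of the 14 called chaperone genes with a RefSeq window, against 12.8% of all windows. The measures are unlike, since these genes have 19 windows and a match in any of them counted. Hspa1a and Hspa1b, both counted, have near-identical windows. This motif was chosen after the chaperones' values were seen. Capitals mark the matches, which overlap in Hspe1.
Hspe1, plus strand, chr1:55087898-55088147: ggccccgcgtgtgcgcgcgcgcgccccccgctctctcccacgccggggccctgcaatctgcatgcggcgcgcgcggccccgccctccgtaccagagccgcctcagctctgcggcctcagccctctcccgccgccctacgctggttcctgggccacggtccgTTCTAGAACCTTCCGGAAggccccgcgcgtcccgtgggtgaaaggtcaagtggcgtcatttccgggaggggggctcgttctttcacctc
Hspb1, plus strand, chr5:135887669-135887918: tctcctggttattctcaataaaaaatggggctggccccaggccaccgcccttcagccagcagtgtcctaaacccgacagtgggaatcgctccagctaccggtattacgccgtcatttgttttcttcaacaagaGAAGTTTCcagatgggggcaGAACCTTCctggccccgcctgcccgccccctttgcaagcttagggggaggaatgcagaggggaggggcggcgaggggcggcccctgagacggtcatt

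Interferon-stimulated genes, which cells switch on against viruses, fell in one direction: 17 of 28 tested were lower at ZT16 and none higher, against 5.92% lower among all genes, and 19 were lower without ZT16 replicate 3. Isg15 (chr4:156199424-156200818), a ubiquitin-like modifier, read 12.7, 14.9 and 15.9 FPKM at ZT4 and 4.23, 5.42 and 5.46 FPKM at ZT16 (log2 difference -1.36 ± 0.12, SE, adjusted p = 0.0035). Usp18, the enzyme that removes ISG15, fell from 4.05, 5.32 and 6.01 FPKM to 1.22, 1.62 and 1.62 FPKM. Ifit1 read 3.38 to 4.04 FPKM against 1.20 to 1.38 FPKM, and Ifit3, Rsad2 and the GTPases Gbp6 and Irgm2 fell by 0.96 to 1.19 on the log2 scale. The transcription factor Irf9 fell by 0.40 on the log2 scale, whereas Stat2 was not called and Irf7, the amplifier of the response, was not called either. Replicate 3 of ZT16 lay with its group for Isg15, Usp18 and Ifit1, and between the groups for Ifi47, at 14.5 FPKM against 8.70 and 5.91 FPKM. The normoxic mean of Isg15 was 14.9 FPKM at ZT0 and 11.6 FPKM at ZT8.

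In bulk liver, fewer cells of a type and less RNA per cell cannot be told apart. The summed FPKM of the Kupffer cell markers, the resident macrophages, was 28.0 to 59.9 at ZT4 and 23.6, 19.3 and 44.2 at ZT16, with overlapping groups and 0 of 6 markers called. That of the B cell markers was at most 0.796 and that of the T and NK cell markers at most 0.978 in every library. Whether cell makeup had a part in the interferon result was not tested.

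**Figure D4:**
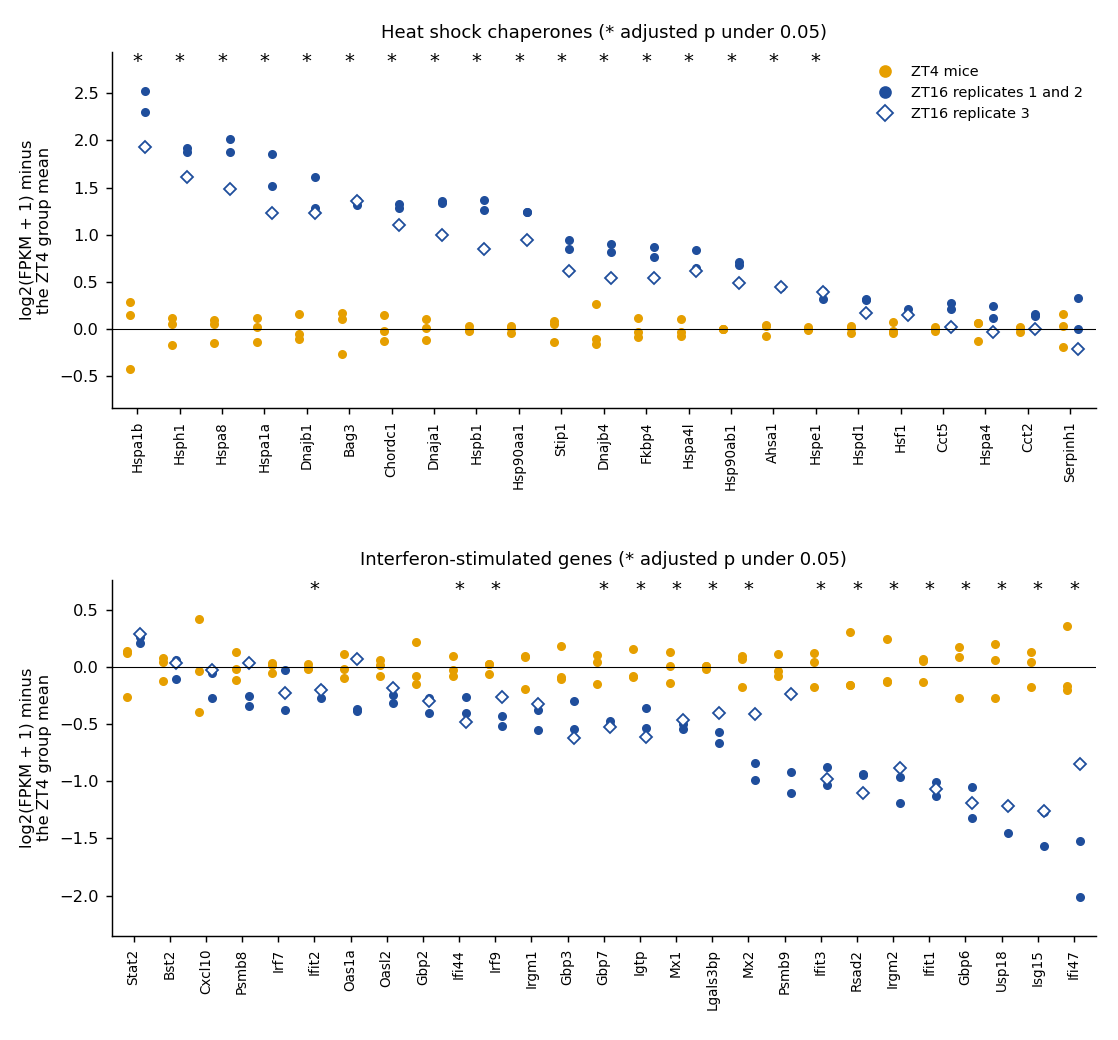
Every library of 23 heat shock chaperones (top) and 27 interferon-stimulated genes (bottom), as log2(FPKM + 1) minus the ZT4 mean, ordered by the difference. The ZT16 points of the 17 called chaperones lie above all ZT4 points and those of the 16 called interferon-stimulated genes drawn below them, with ZT16 replicate 3 (diamond) the lowest ZT16 point for most chaperones.

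Of 17 genes of glycolysis and glucose uptake tested, 6 rose and none fell, and 8 rose without ZT16 replicate 3. Pfkfb3, which makes the activator of phosphofructokinase, rose from 0.997 to 1.16 FPKM to 2.66 to 3.68 FPKM. Eno1, Gpi1 and Pgk1, enzymes of the pathway itself, rose by only 0.33 to 0.58 on the log2 scale, and Pgk1 was not called without ZT16 replicate 3. In the glycogen list 2 of 18 rose and 2 fell, and 3 and 3 without that library, beside 3.90% and 5.92% of all genes with all 6. Ppp1r3b, which brings the phosphatase that activates glycogen synthase to glycogen, read 28.1, 15.3 and 28.8 FPKM against 123, 114 and 76.4 FPKM, and Gys2, the liver glycogen synthase, rose by 0.87 ± 0.16. Phka2, the liver subunit of the kinase that starts glycogen breakdown, fell by 0.53 ± 0.09, and Gaa, the lysosomal enzyme that degrades glycogen, by 0.41 ± 0.09.

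The gluconeogenesis list had 5 of 20 higher and none lower, against 3.90% and 5.92% of all genes, and 6 and 1 without ZT16 replicate 3. Pck1 and G6pc were not among them: Pck1 read 723 to 937 FPKM at ZT4 and 561 to 841 FPKM at ZT16, and G6pc 79.5 to 242 FPKM and 157 to 201 FPKM. Those that rose were Fbp1 (0.50 ± 0.09), the glucose-6-phosphate carrier Slc37a4 (0.71 ± 0.12), the transcription factors Klf15 and Creb1, and Tat, the aminotransferase of tyrosine. Tat read 354, 393 and 688 FPKM against 936, 958 and 1186 FPKM, and it was not called without ZT16 replicate 3.

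Of 27 genes of fatty acid synthesis tested, 7 rose and 1 fell, and 8 and 1 without ZT16 replicate 3. Thrsp, a nuclear protein tied to lipogenesis, read 153, 65.2 and 140 FPKM at ZT4 and 797, 969 and 922 FPKM at ZT16, where replicate 3 lay between the other mice (2.98 ± 0.31 on the log2 scale, SE, adjusted p = 0.0057). Fasn, the fatty acid synthase, read 42.9, 28.0 and 43.1 FPKM against 86.1, 84.4 and 77.1 FPKM. Srebf1, its sterol-responsive activator, read 39.5 to 43.7 FPKM at ZT4, 108 and 110 FPKM in ZT16 replicates 1 and 2, and 57.1 FPKM in replicate 3. The other genes that rose were Pklr, Elovl6, Agpat2 and Pnpla3, the last of which was not called without replicate 3. Elovl5, an elongase of polyunsaturated fatty acids, fell from 221, 143 and 207 FPKM to 83.1, 80.4 and 117 FPKM.

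Sterol synthesis had 2 of 25 genes higher, among them Insig1, and 2 lower, Hmgcs1 and Sc5d, beside 3.90% and 5.92% of all genes. Without ZT16 replicate 3 they became 3 and 7. Hmgcs1, which makes the precursor of mevalonate, read 153, 75.1 and 142 FPKM at ZT4 and 30.0, 27.1 and 60.2 FPKM at ZT16. Fdps, the farnesyl diphosphate synthase, read 193 to 279 FPKM at ZT4, 106 and 136 FPKM in ZT16 replicates 1 and 2 and 335 FPKM in replicate 3, which was thus above all ZT4 mice.

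Of 26 bile acid genes, 3 were higher and 7 lower, and 4 and 7 without ZT16 replicate 3. Cyp7a1, the rate-limiting enzyme of bile acid synthesis, read 5.24, 4.75 and 6.24 FPKM at ZT4 and 20.0, 23.5 and 10.1 FPKM at ZT16 (log2 difference 1.49 ± 0.29, SE, adjusted p = 0.027). The bile acid receptor Nr1h4 (FXR) and Akr1d1 also rose. Among those that fell, Abcb11, the pump that secretes bile salts, read 96.9 to 104 FPKM and then 47.8 to 52.6 FPKM, with an adjusted p of 0.0023. Cyp8b1, which directs synthesis to cholic acid, fell by 0.78 ± 0.15 on the log2 scale. Hsd3b7, an early step of synthesis, fell by 1.04 ± 0.14, and the repressor Nr0b2 (SHP) fell by 0.75 ± 0.17. The phospholipid and sterol exporters Abcb4 and Abcg8 and the peroxisomal oxidase Acox2 fell as well.

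In the list of drug-metabolising P450 genes and their sensors, 4 of 23 rose and none fell, and 6 rose without ZT16 replicate 3. Cyp2a5, which oxidises coumarin and nicotine, read 123, 94.2 and 105 FPKM at ZT4 and 482, 558 and 266 FPKM at ZT16, and its near-identical copy Cyp2a4, with which it may share reads, 3.53 to 4.16 FPKM against 9.12 to 20.9 FPKM. Cyp2b10 and the receptor Nr1i2 (PXR) rose, while Nr1i3 (CAR), at 31.0 to 45.4 FPKM and at 81.7, 79.6 and 47.3 FPKM, passed only without replicate 3. Cyp3a11 read 489 to 881 FPKM at ZT4 and 306 to 1119 FPKM at ZT16, with overlapping groups.

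Of 17 genes tested in the glucocorticoid response list, 6 rose and 1 fell, and 5 and 1 without ZT16 replicate 3, where Tat was not called. Tsc22d3 (GILZ) read 16.1, 9.45 and 36.2 FPKM at ZT4 and 101, 101 and 59.8 FPKM at ZT16. Fkbp5, a cochaperone that dampens the receptor, was among the genes with the smallest p: 4.70, 4.06 and 4.50 FPKM against 11.4, 12.6 and 12.7 FPKM (log2 difference 1.29 ± 0.08, SE, adjusted p = 0.0023). Tsku, a secreted proteoglycan with the largest rise of all, read 13.4, 3.56 and 5.77 FPKM at ZT4 and 141, 124 and 55.3 FPKM at ZT16. Per1, Tat and Gadd45b were the others, and Klf9 fell by 0.84 ± 0.16 on the log2 scale. Of 19 immediate early genes only Egr1 was called, and Junb with it without ZT16 replicate 3. Egr1 was lower at ZT16 at 0.576, 0.353 and 1.28 FPKM after 13.4, 10.5 and 3.36 FPKM at ZT4. ZT4 replicate 2 was high for Junb, at 53.9 FPKM against 16.2 and 18.2 FPKM in the other ZT4 mice.

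Nampt, which makes the precursor of NAD and is a clock target, had one of the tightest changes: 6.77, 6.45 and 6.50 FPKM at ZT4 and 18.4, 17.8 and 16.9 FPKM at ZT16. In its list of NAD, one-carbon and antioxidant genes, 2 of 30 tested rose, Nampt and Sod2, and 2 fell, Gsr and Gstm3, and the counts were 4 and 3 without ZT16 replicate 3. Of 37 genes of amino acid catabolism and the urea cycle, 4 were higher and 2 lower, the latter no larger a share than the 5.92% of all genes, and without ZT16 replicate 3 the counts were 4 and 5. Asl, the argininosuccinate lyase, rose from 156 to 183 FPKM to 335 to 422 FPKM, while Cbs, the entry to transsulfuration, fell from 195 to 214 FPKM to 103 to 111 FPKM, and the glutamine carrier Slc38a3 fell from 602 to 619 FPKM to 330 to 453 FPKM.

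Of 25 autophagy genes 5 fell and none rose with all 6 libraries, against 5.92% and 3.90% of all genes. Without ZT16 replicate 3, 5 fell and 2 rose (Atg3 and Bnip3), and median-of-ratios scaling called 6 lower and 2 higher. Those that fell with all 6 were Gabarapl1, a lipid-conjugated protein of the autophagosome membrane that read 134 to 198 FPKM at ZT4 and 62.2 to 72.8 FPKM at ZT16, and Sqstm1, Sesn1, Wipi1 and Wipi2, the last not called without replicate 3. Of 32 proteasome genes 6 fell and none rose, with and without that library, all by 0.29 to 0.43 on the log2 scale (Psma1, Psma5, Psmc1, Psmd3, Psmd4 and Psmd11). Of 23 ribosome biogenesis genes 6 rose and none fell, and 7 rose without it, led by Nolc1, a nucleolar chaperone, at 4.15 to 6.43 FPKM and 13.5 to 14.8 FPKM. By limma's adjusted p, 0 of 50 cytosolic ribosomal protein genes and 0 of 40 genes of the respiratory chain were called, against 3 and 8 at an unadjusted p under 0.05, and median-of-ratios scaling called 0 and 5 of them. All ZT16 libraries lay above all ZT4 libraries for 27 and 10 of these genes and below them for 1 and 0. Among all genes this held for 13.9% and 19.7%. The median log2 differences of the 2 lists were small, 0.11 and 0.15. Without ZT16 replicate 3, 1 ribosomal protein gene was lower and 3 respiratory chain genes were higher. The unfolded protein response of the endoplasmic reticulum had 3 of 26 higher, Herpud1, Dnajb9 and Ddit3, and Trib3 lower, with the same counts without it.

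The smaller counts, as higher and lower at ZT16, were 3 and 1 of 21 genes of the hypoxia-inducible factor pathway (P4ha1, P4ha2 and Pfkfb3 against Ndrg1), 1 and 1 of 20 of the insulin, growth hormone and IGF axis (Stat5b being the lower one), and 1 and 1 of 18 of iron handling (Alas1 against Smad7). Zonation had 1 and 2 of 19 (Slc1a2 against Hal and Lgr5), the TCA cycle 1 and 0 of 18 (Mdh2), cell cycle 1 and 0 of 24 (Wee1), and cholesterol and lipoprotein transport 0 and 1 of 22 (Lpl). Among all genes 3.90% and 5.92% were called. Without ZT16 replicate 3 the counts were 7 and 1 for the hypoxia-inducible factor pathway (Bnip3, Higd1a, Pdk1 and Vhl joining the rises; 6 and 1 with median-of-ratios scaling and all 6 libraries), 3 and 1 for the insulin axis, 2 and 2 for iron handling, 2 and 3 for zonation, 3 and 0 for the TCA cycle, 1 and 0 for cell cycle, and 2 and 2 for lipoprotein transport. Stat5b, the mediator of growth hormone, read 11.8 to 14.1 FPKM at ZT4 and 6.78 to 6.98 FPKM at ZT16.

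Large changes also occurred outside the lists. Tnnc1, a troponin C, read 0.269, 0.813 and 0.377 FPKM at ZT4 and 4.68, 5.63 and 5.68 FPKM at ZT16, and Mfsd2a, a carrier of lysophospholipids, 6.54, 3.87 and 13.5 FPKM against 37.1, 27.8 and 36.3 FPKM. Among genes that fell, the ubiquitin ligase Rnf125 read 33.9, 32.1 and 31.0 FPKM at ZT4 and 7.51, 9.21 and 8.22 FPKM at ZT16 (adjusted p = 0.0023). Slc8b1, the mitochondrial sodium-calcium exchanger, fell from 29.3, 25.5 and 28.1 FPKM to 5.44, 5.81 and 8.33 FPKM. The long noncoding RNA Neat1, the scaffold of paraspeckles, read 131, 241 and 241 FPKM and then 53.5, 57.2 and 68.1 FPKM. Dyrk1b, a kinase, fell by 1.40 ± 0.09 on the log2 scale. Tcp11l2, Gpcpd1, Raet1d, Tymp, 3010026O09Rik (annotated as Mrnip) and 1500017E21Rik (an antisense transcript annotated as Hectd2os) completed the 12 largest falls, at log2 differences from -1.66 to -2.07.

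The counts of the acute phase list and of the list of fatty acid oxidation and ketogenesis moved with ZT16 replicate 3. With all 6 libraries limma called 0 of 27 acute phase genes and 0 of 31 fatty acid oxidation genes. At an unadjusted p under 0.05 the counts were 3 and 8. Median-of-ratios scaling of all 6 called 0 acute phase genes, and 2 fatty acid oxidation genes higher and 2 lower. Without ZT16 replicate 3, 6 acute phase genes were lower and 10 fatty acid oxidation genes higher, against 7.13% and 7.23% of all genes. That scaling without ZT16 replicate 3, a setting chosen after seeing the data, called 11 fatty acid oxidation genes higher and 2 lower. Fgg, a fibrinogen chain, read 3282, 2533 and 3878 FPKM at ZT4, 1170.0 and 1040.5 FPKM in ZT16 replicates 1 and 2, and 3126 FPKM in replicate 3. Fga, Fgb, Lbp and Cp, also secreted in the acute phase, and Stat3, which carries the signal of interleukin-6, were likewise called lower only without it. Saa1 also varied within ZT4, at 2357, 57.4 and 2435 FPKM, and Lcn2, an iron-sequestering protein of inflammation, read 60.6, 2.61 and 72.8 FPKM at ZT4 and 1.85, 2.96 and 1432 FPKM at ZT16. The neutrophil marker S100a8 read 0.902 to 2.65 FPKM at ZT4, 0.247 and 0.736 FPKM in ZT16 replicates 1 and 2 and 4.66 FPKM in replicate 3, where the summed neutrophil markers were 11.5 FPKM against 0.688 to 6.54 FPKM elsewhere. The part of neutrophils or of inflammation in these values was not tested.

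The fatty acid oxidation genes called only without it included targets of the fatty acid receptor PPAR alpha. Cyp4a14, a fatty acid hydroxylase, read 8.82 to 10.1 FPKM at ZT4, 40.2 and 57.4 FPKM in ZT16 replicates 1 and 2, and 4.44 FPKM in replicate 3. Acot1, a thioesterase with close copies in its family, read 6.80 to 12.2 FPKM, then 39.4 and 46.4 FPKM, and 6.52 FPKM in replicate 3. Angptl4, an inhibitor of lipoprotein lipase, read 29.8 to 35.4 FPKM, then 76.2 and 80.5 FPKM, and 41.6 FPKM. Asns, the asparagine synthetase of the amino acid response, read 3.42 to 3.79 FPKM at ZT4, 0.735 and 0.784 FPKM in the first 2 ZT16 mice and 9.79 FPKM in the third. The secreted peptide gene Enho (7.22 and 7.53 against 19.5 FPKM), Mme (8.13 and 7.87 against 3.12 FPKM) and Cyp2c53-ps (2.23 and 2.52 against 0.554 FPKM) were the others with the smallest p among genes called only without it. Klf1, Pars2, Tsr1 and Ppm1d, among those lost without it with the smallest p, were near the threshold in both fits, at adjusted p of 0.034 to 0.035 with it and 0.050 to 0.053 without.

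**Figure D5:**
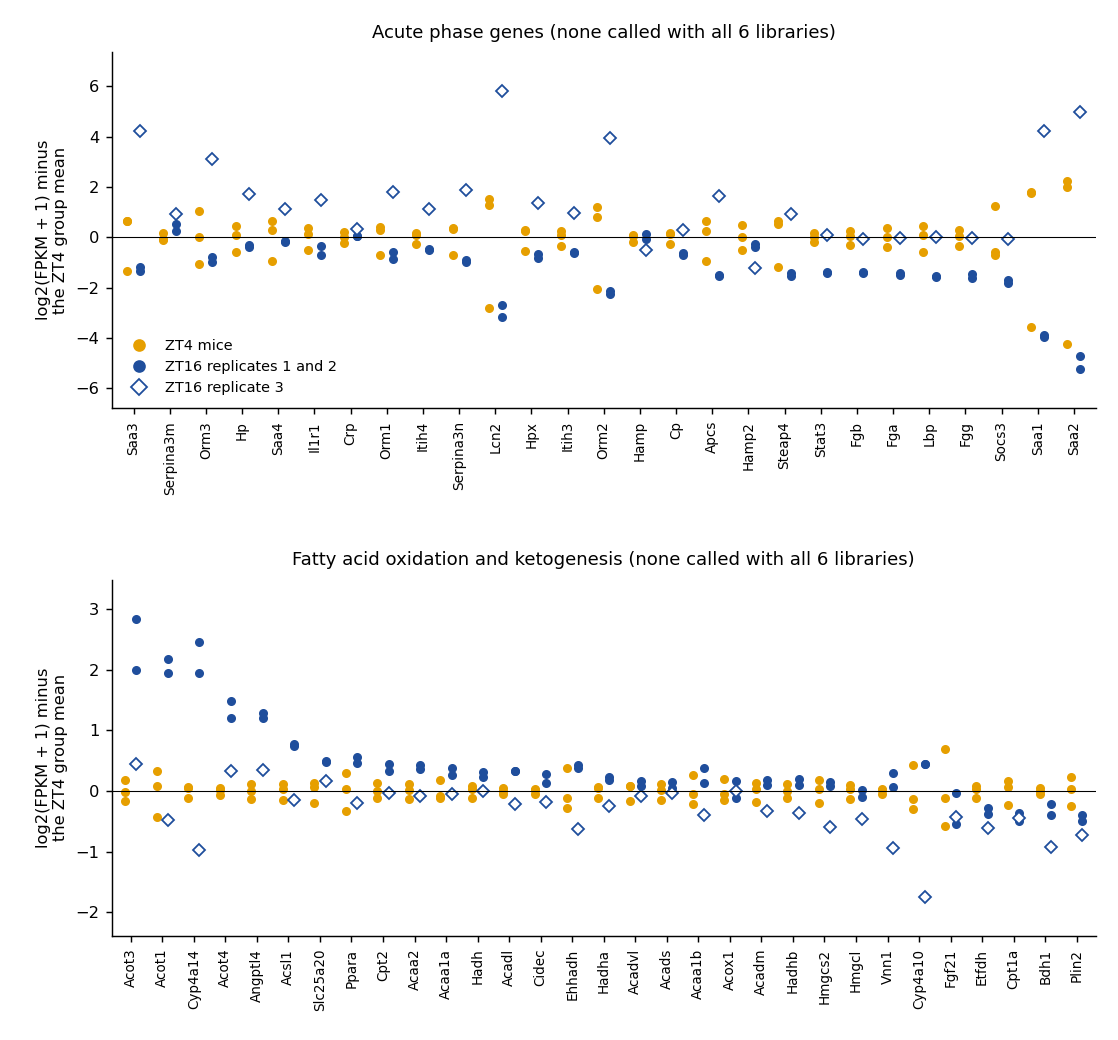
Every library of 27 acute phase genes (top) and 31 genes of fatty acid oxidation and ketogenesis (bottom), as log2(FPKM + 1) minus the ZT4 mean. ZT16 replicate 3 (diamond) lies far above ZT16 replicates 1 and 2 (filled) for genes such as Lcn2 and Saa1, and at or below ZT4 for Cyp4a14 and Acot1.

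Of 50 tested markers in 12 lists, Pdgfrb of stellate cells alone was called, at 1.52 to 1.83 FPKM against 0.794 to 1.18 FPKM. Without ZT16 replicate 3 it was not called, and Apoa1 of hepatocytes and Cela2a of pancreatic acini were called lower. The pancreatic markers Prss2, Cpa1, Pnlip and Ctrb1 and the adipocyte markers Plin1 and Lep were listed at 0 in all 6 libraries. Other members of these lists were above 0: the pancreatic Cela1 and Cela2a averaged 11.4 and 0.433 FPKM over the 6 libraries. The adipocyte markers Cfd and Adipoq averaged 0.330 and 0.00461 FPKM.

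The same 2 times in IH mice, which share no animal with the normoxic ones, were compared to ask whether the day-night change differed with the exposure. In IH, 1430 genes (10.8%) were called higher and 2891 (21.9%) lower at ZT16. Of the 516 normoxic rises, 373 (72.3%, or 26.1% of the IH rises) were also called higher in IH and 1 lower, and of the 782 falls 641 (82.0%, or 22.2% of the IH falls) were also called lower and none higher. A test of the difference itself called 4 genes of 13215, 0.0303%, with 487 at an unadjusted p under 0.01. Rgs16, a brake on G protein signalling, read 1.02 to 3.42 FPKM at ZT4 and 0.664 to 3.60 FPKM at ZT16 in normoxia, but 77.5 to 86.8 FPKM and 1.66 to 2.55 FPKM in IH. Abcg5 and Abcg8, which pair to form 1 sterol exporter, parted in normoxia: Abcg8 fell from 23.7 to 24.4 FPKM to 12.9 to 15.2 FPKM, while Abcg5 read 22.0 to 24.5 FPKM and 21.4 to 24.9 FPKM and was not called. In IH, Abcg5 fell from 35.0 to 41.3 FPKM to 17.6 to 18.4 FPKM and Abcg8 from 37.0 to 44.8 FPKM to 10.3 to 11.5 FPKM. Hsp90aa1 rose in both, by 1.14 in normoxia and by 2.26 in IH on the log2 scale. Each of these 4 differences had a limma adjusted p of 0.0050, and with a pseudocount of 0.1 that of Rgs16 was 0.055. Morf4l2 and Sorbs2, next in order, did not pass (adjusted p of 0.062 and 0.065). Without normoxic ZT16 replicate 3 the difference was called for 50 genes.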

How the data were processed

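Liver RNA of 36 mice was sequenced by the authors as stranded poly-A libraries, aligned with TopHat2 2.1.1 (on Bowtie2) to mm10 and quantified with Cufflinks 2.2.1, per the submitters' processing notes and the study's methods. The deposited values are FPKM per gene symbol and mouse, with 1 table per condition. No read counts are kept, so that depth is unknown and a low FPKM has no counting interval here. A difference on the log2(FPKM + 1) scale understates the change of low genes.

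Of 24346 symbols, the 24066 listed on 1 row were kept and 13215 whose average across all 36 libraries reached 0.1 FPKM were tested. ZT16 was compared with ZT4 with limma 3.58.1 (R 4.3.3; lmFit, and eBayes with an intensity trend) over the 6 libraries, with Benjamini-Hochberg adjusted p under 0.05. IH was fitted in the same way, and the difference of both changes as an interaction over 12 libraries. Each mouse was 1 biological replicate. On data simulated from the 13215 genes of the normoxic comparison, 88% of 100 genes changed by 1 and 97% of 100 changed by 2 on the log2 scale were called, with 8 of 13015 unchanged genes. The changed genes were drawn from those with a mean log2(FPKM + 1) of at least 1. Noise was normal and independent between genes, so that no library stood apart as ZT16 replicate 3 does. Alternatives were other pseudocounts, filters, scalings, spread estimates and a replicate block, and each library left out. The mice at the 2 times were different animals, and the main fit did not pair them by replicate number. The correlations of same-numbered deviations from the group means were -0.11, 0.23 and 0.30. With 3 mice a group these values cannot tell whether same-numbered mice shared a batch.

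In each direction the 12 largest changes were named among called genes with groups that did not overlap and a mean of at least 1 FPKM. The 5 genes with the smallest p in each direction were named without these filters. List members and the 3 leading differences between conditions in each direction were also named. So were the 5 leading calls gained or lost with ZT16 replicate 3, at a mean of at least 1 FPKM. The comparison, its members and the 31 pathway and 12 marker lists were chosen with earlier results of these data known. Gene coordinates are from GENCODE M21 and promoter windows from RefSeq, both on GRCm38, the assembly of mm10. Near-identical copies, such as Hspa1a and Hspa1b, Cyp2a4 and Cyp2a5, or Saa1 and Saa2, may share reads. Some genes that counts and lists include are not reported here by name.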

Additional observations from a re-analysis of the deposited data

Results flagged for a closer look

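The change from ZT4 to ZT16 differed between normoxia and IH by its own test for 4 genes, each with a limma adjusted p of 0.0050. As normoxia minus IH on the log2 scale, the difference was 4.72 for Rgs16 (-0.07 in normoxia, -4.79 in IH), 1.14 for Abcg8 (-0.71 and -1.85), 1.02 for Abcg5 (-0.04 and -1.06) and -1.12 for Hsp90aa1 (1.14 and 2.26). In all 4 the means of the 2 conditions differed by a larger ratio at ZT4 than at ZT16. At ZT4, Rgs16 averaged 2.01 ± 1.26 FPKM in normoxia and 80.7 ± 5.23 FPKM in IH (SD, n = 3), and at ZT16 it averaged 1.95 ± 1.50 FPKM in normoxia and 1.98 ± 0.492 FPKM in IH. Groups of 3 mice are too small for a test of single outlying libraries.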

How the results depend on the processing

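No call of a named gene changed direction under any alternative run. The 1298 calls (516 higher, 782 lower) became 821 (341 and 480) in a fit over all 18 normoxia libraries and 3550 (1628 and 1922) with sample weights, and 2175 (1092 higher) with median-of-ratios scaling and ZT16 replicate 3 left out, a setting chosen after seeing the data. The higher calls alone were 839 with cyclic loess, 860 with median-of-ratios scaling and 806 with quantile normalization. The 141 list members called became 278 with sample weights and 226 in the setting chosen after seeing the data. The 4 differences between conditions became 8 with median-of-ratios scaling and 8 with quantile normalization. With each library left out in turn, the calls ranged from 253 to 1898, those higher from 102 to 956, those lower from 151 to 942, list members from 48 to 201, and the differences from 4 to 50. With the replicate number as a block, 942 genes were called (409 higher, 533 lower), 124 list members and 4 differences. The labels give same-numbered mice nothing in common but the number. Of 232 named genes, 33 lost and 5 gained their call. Without the filter on low values, where more genes are tested, 37 of these 232 lost theirs, and with a pseudocount of 0.1 only 1 did. The causes of the other shifts were not tested.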

Other observations

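Several named genes moved in normoxia and not, or the other way, in IH, without passing the test of the difference. They were chosen after their values were seen. Fkbp5, the glucocorticoid-induced cochaperone, rose from 4.42 ± 0.327 to 12.2 ± 0.735 FPKM in normoxia (SD, n = 3) and averaged 10.4 ± 4.12 and 9.55 ± 1.63 FPKM in IH, and limma gave the difference an adjusted p of 0.17. Neat1 fell from 204 ± 63.6 to 59.6 ± 7.57 FPKM in normoxia and averaged 71.8 ± 20.2 and 91.7 ± 9.19 FPKM in IH (adjusted p = 0.10 for the difference, limma). Gadd45b, a stress-induced gene, rose in normoxia and in IH fell by 0.96 on the log2 scale (adjusted p = 0.13 for the difference, limma). In the list of endoplasmic reticulum stress and folding, 18 of 26 genes rose in IH and 3 in normoxia. Among all genes tested, 10.8% were called higher in IH and 3.90% in normoxia. The difference was called for 0 of the 26.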
